A study of Marmota monax with 20 samples.

Results

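A set of 66 of the 30973 annotated genes of the Eastern woodchuck (Marmota monax) was high in kidney, lung and pancreas together and low in liver, spleen, heart and thymus. The genes were chosen by their measured levels in all 20 RNA-seq libraries, so their contrast between these tissues is a description and was not tested. A level, N, is a read count divided by the size factor of its library (the median ratio to the geometric mean over the 16970 genes counted in every library). The score of a gene is its lowest N among 5 kidneys, 1 lung and 1 pancreas, divided by its highest N among the other 13 libraries after 5 was added to the latter. Genes with a score of at least 2 and a lowest N of at least 100 were kept. All 66 are included, since the limit of 150 genes was not reached.

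The libraries came from adult woodchucks of both sexes that were negative for woodchuck hepatitis virus, and the labels name no treatment. Liver was sampled from 6 animals (F6849, F9150, F6852, M4046, M4075 and M4091). The same animals except F6852 gave 5 kidneys and 5 spleens. Heart and lung came from F6849 alone, and pancreas and thymus from F9150 alone, so these 4 tissues have 1 library each and no replicate. Libraries of one animal share the individual, and F or M in its name was read as female or male.

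Kidney, lung and pancreas all contain branched tubes lined by epithelium, sheets of cells that are joined to each other and face a lumen. The tubes carry urine, air or digestive juice. Spleen and thymus consist mainly of cells of the immune system, heart mainly of muscle, and liver mainly of hepatocytes, with bile ducts as a smaller compartment. The table gives gene identifiers without names, and none of the identifiers (0) matched the reference gene table, so neither the roles of the 66 genes nor the markers of the labelled tissues could be looked up. Genes are therefore given by identifier. Gene lengths were not used here either, so levels are compared between libraries and not between genes. In whole tissue, fewer cells of a type and less RNA per cell cannot be told apart.

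Libraries held 59487004 to 140252555 counts. Between 85.1% and 86.5% of the counts above 0 in a library were even, which is what counting each mate of a pair separately would give. The libraries ran in 8 lanes. Lung shared a lane with thymus, and pancreas shared one with kidney M4091 and spleen M4046.

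The 66 genes held 0.539% to 0.702% of the counts of a kidney library, 0.370% of those of lung and 0.193% of those of pancreas. In the other 13 libraries their share was between 0.00238% and 0.0137%. The median N of the genes was 2069 in kidney F6849, 2470 in kidney F9150, 1995 in kidney M4046, 2593 in kidney M4075 and 2307 in kidney M4091. It was 1552 in lung and 1146 in pancreas. The medians of thymus (13.9) and heart (14.7) lay in the range of the 5 spleens (11.5 to 15.4). The 6 livers ranged from 24.5 to 80.5, the highest being liver M4046.

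**Figure D1:**
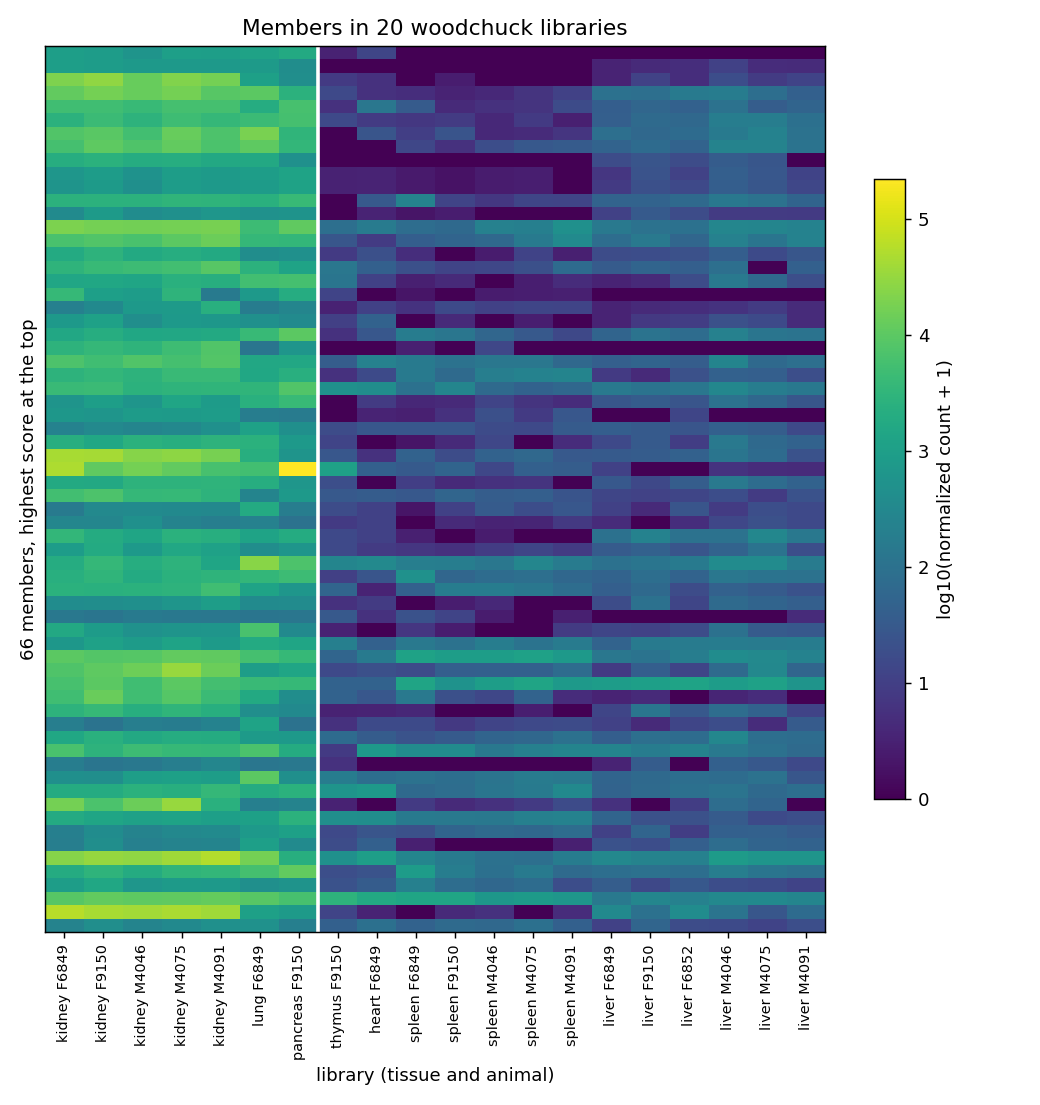
Level of each of the 66 genes (rows, highest score at the top) in the 20 libraries (columns), as log10 of the normalized count plus 1. The 7 columns left of the white line are the kidney, lung and pancreas libraries used for the lowest level, and the 13 to its right are the other libraries, where the median level was 11.5 to 80.5.

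Scores ran from 2.01 to 34.2, with a median of 4.34 and quartiles of 2.86 and 9.25. The lowest scores kept were those of Monax4B043008 (2.04) and Monax4B017685 (2.01). Just outside were Monax4B008788 (1.93) and Monax4B009320 (1.90). On the limit of level, Monax4B031098 and Monax4B025332 were kept with a lowest N of 104 each, whereas Monax4B012394 (99.8) and Monax4B003339 (99.3) were not. The 66 genes are 0.515% of the 12821 genes whose N was at least 100 in all 7 kidney, lung and pancreas libraries. These 12821 genes are the background for the levels below.

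The highest score belonged to Monax4B028510. Its N was 1003, 885, 591, 1015 and 1007 in the kidneys of F6849, F9150, M4046, M4075 and M4091, 1223 in lung and 1766 in pancreas. It had no count in any of the 6 livers or 5 spleens, 2.32 in thymus and 12.3 in heart. Monax4B022345 followed, with 735 to 1004 in the kidneys, 828 in lung and 420.0 in pancreas. It was at 0 in thymus, heart and all 5 spleens, and at 2.40 to 10.1 in the 6 livers. By counting error alone, a count of 0 allows up to 3 counts in a library, or 6 where the mates of a pair are counted separately.

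Low did not mean absent for most of the genes. In 40 of the 66, at least 1 of the other 13 libraries had an N of 100 or more, and in 4 genes one reached 1000. Only 1 gene had fewer than 10 counts in all 13. Fewer than 10 counts were found in heart for 31 genes, in thymus for 28, in every spleen for 17 and in every liver for 9. The highest of the 13 libraries was a liver for 33 genes, a spleen for 18, thymus for 9 and heart for 6. Liver M4046 alone gave 21 of the 33. With 6 livers, 5 spleens, 1 thymus and 1 heart, neither these counts nor those of fewer than 10 counts rank the tissues. No share over all genes is given for them.

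Monax4B025577 had the highest lowest level, 6065 in pancreas, beside 9120.2 in lung and 10837 ± 1125 in kidney (SD, n = 5). It was also present elsewhere, with 2900.4 in thymus, 1688 in heart, 634 to 1411 in the spleens and 147 to 344 in the livers. Every one of the 7 libraries was above each of the other 13, which the rule requires.

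The genes were shared by the 3 tissues but were not equally high in them. With the median of the 5 kidneys as the kidney level, 34 genes were highest in kidney, 18 in pancreas and 14 in lung. Among the background genes the shares were 29.7% in kidney, 39.8% in pancreas and 30.4% in lung. The median ratio of lung to kidney was 0.798 for the 66 genes and 0.973 for the background, and that of pancreas to kidney was 0.562 and 0.997. Within the animal that gave both tissues, the median ratio of lung to kidney was 0.828 (F6849) and that of pancreas to kidney 0.550 (F9150). The scaling matters for pancreas. With library sizes alone, the median log2 ratio of pancreas to kidney was -2.53 for the 66 genes and -1.69 for the background, in place of -0.83 and 0.00.

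The highest of the 3 tissue levels exceeded the lowest 3.64 times at the median, from 1.12 to 69.9 times, against 1.84 times in the background. The levels lay within 2 times of each other for 16 genes (56.0% of the background) and more than 10 times apart for 15 genes (5.55% of the background). The rule fixes a floor and no ceiling for these levels. The most even gene was Monax4B022251, with 119 to 153 in the kidneys, 120.2 in lung and 122 in pancreas. Next was Monax4B016137, with 354 to 812 in the kidneys, 503 in lung and 542 in pancreas, so its single lung and pancreas values lay inside the range of the kidneys.

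**Figure D2:**
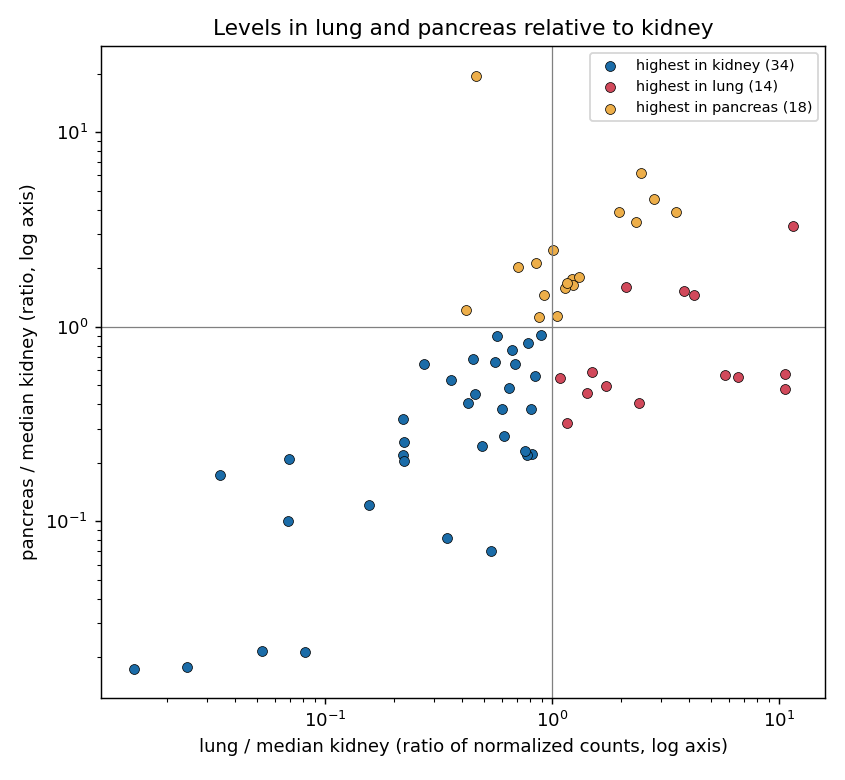
Each point is 1 of the 66 genes, placed by the ratio of its lung level (x axis) and of its pancreas level (y axis) to the median of the 5 kidneys, both on log axes and coloured by the tissue with the highest level. Most genes highest in kidney form the lower left part, 14 are highest in lung and 18 in pancreas, and 1 gene stands alone at a pancreas ratio of 19.5. Pancreas ratios depend on the scaling.

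Each of lung and pancreas was then set against all 5 kidneys. Lung was at least 2 times above every kidney in 8 of the 66 genes (background 5.96%) and at most 1/2 of the lowest kidney in 13 (background 6.07%). Pancreas was at least 2 times above every kidney in 7 genes (background 8.67%) and at most 1/2 of the lowest kidney in 20 (background 9.66%). With library sizes alone the pancreas counts were 0 above and 48 below. In 12 genes both lung and pancreas were below the kidneys by this measure, in 2 both were above, and in 0 did they move in opposite directions. The remaining 32 genes met none of these 4 limits. No background share is given for the joint counts, so they only describe the 66 genes.

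Monax4B026898 had the largest ratio of lung to the median kidney, 11.4. Its N was 24899.6 in lung, 7176 in pancreas and 1991, 3579, 2175, 2862 and 1389 in the 5 kidneys, in the order of animals used above. Monax4B010865 followed with a ratio of 10.6, at 9992 in lung, 452 in pancreas and 461, 440.0, 1004, 1072 and 940.1 in the kidneys. Its pancreas level lay within the range of the kidneys, while lung was above all of them for both genes.

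Monax4B040971 had the largest ratio of pancreas to kidney, 19.5. That value depends on the scaling, with a size factor of 0.443 for pancreas and 1.07 to 1.79 for the kidneys. Before scaling, the gene had 97808 counts in pancreas and 81850, 17556, 19988, 20238 and 6698 in the kidneys. Its N was 220845 in pancreas, 47908, 11004, 16773, 11301 and 6271 in the kidneys and 5205 in lung. The next level was 1147 in thymus, and no spleen exceeded 52.4 or liver 9.61. Thymus and pancreas came from the same animal, F9150, whose spleen was at 52.4 and liver at 0. Thymus also shared a lane with lung, and the part of animal and lane was not tested. Monax4B019290 was next with a ratio of 6.15, at 9818 in pancreas, 3939.9 in lung and 1532 to 2186 in the kidneys, and both single libraries exceeded every kidney.

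At the other end, Monax4B032744 exceeded the higher of lung and pancreas 57.1 times in the median kidney. It was at 17149.8, 6927, 14186, 33142 and 2464 in the kidneys, 203 in lung and 248 in pancreas. The kidneys differed widely and even the lowest was above both other tissues. Monax4B043008 exceeded the higher of lung and pancreas 40.7 times, at 45991 ± 8765 in kidney (SD, n = 5), 1104 in lung and 799 in pancreas. This gene only just met the limit of the score.

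The pancreas library shared a lane with kidney M4091 and spleen M4046, so low pancreas counts were set beside theirs. In 9 genes, the pancreas count was under 5% of that of kidney M4091 from the same lane (0.866% to 4.73%). In spleen M4046, the third library of that lane, the same genes held 0% to 0.481% of the kidney M4091 count. No background share is given for the 9 genes, and the part of the shared lane in the pancreas values was not tested.

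The 5 kidneys, the only replicates among the high tissues, differed more in these genes than in the background. The coefficient of variation (SD over mean) was 0.284 at the median, with quartiles of 0.221 and 0.363, and 0.147 in the background, with quartiles of 0.0973 and 0.225. It was above the background median in 59 of the 66 genes. The highest kidney exceeded the lowest 1.98 times at the median (background 1.43 times). It did so at least 4 times in 5 genes, a count given without a background share. The rule used the lowest kidney level of each gene, so these values are a description.

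The largest coefficient was 0.942, in Monax4B014779, which was chosen after its values were seen, as was the next gene. It was at 209.5, 342, 792, 814 and 2335 in the kidneys of F6849, F9150, M4046, M4075 and M4091. Monax4B042982 had the widest range, 25.7 times, at 3802, 1019, 886, 2979.7 and 148. The kidney of M4091 was thus the highest for one gene and the lowest for the other.

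**Figure D3:**
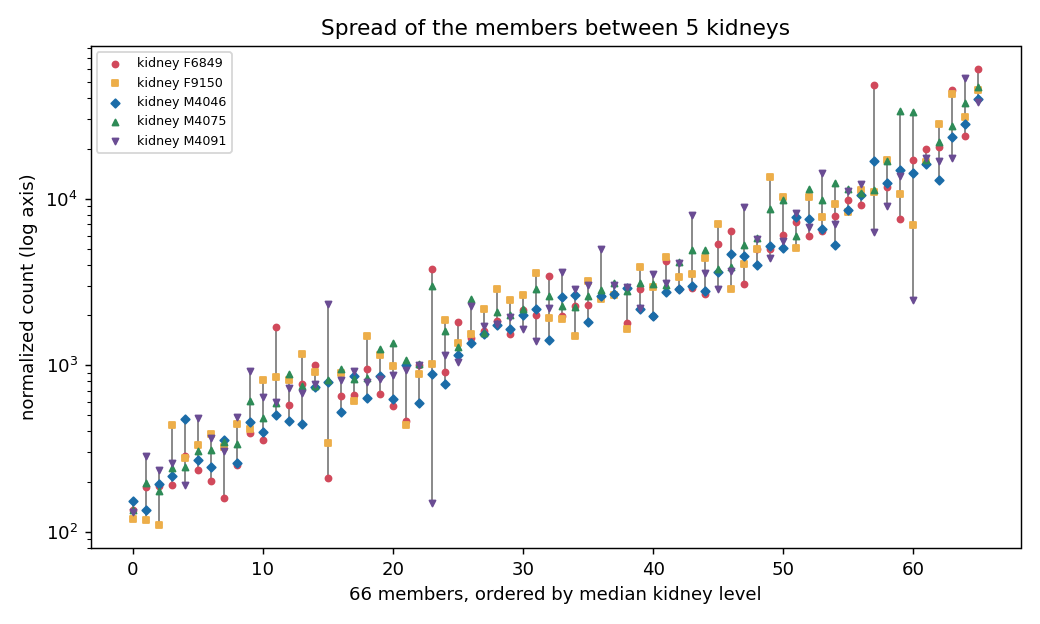
Normalized counts of the 66 genes in the 5 kidney libraries on a log axis, with genes ordered by their median kidney level and a grey line from the lowest to the highest kidney of each gene. The lines span 1.18 to 25.7 times, with a median of 1.98.

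No kidney was highest in most genes. Kidney F9150 was highest in 19 (background 25.8%), M4091 in 18 (25.6%), M4075 in 16 (18.7%) and F6849 in 10 (16.9%). Kidney M4046 was highest in 3 (background 13%) and lowest in 21 (background 19.6%). F6849 was lowest in 20 (17.4%), F9150 in 13 (22.8%) and M4091 in 12 (24.6%). Kidney M4075 was lowest in 0 of the 66 genes (background 15.6%).

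The next question was whether liver and spleen, both low, kept the same residual level of these genes. The rule set neither direction of this contrast. The 2 tissues were compared with edgeR's quasi-likelihood test in a fit of 16 libraries of liver, kidney and spleen. All 66 genes passed the filter on low counts because kidney, where the rule made them high, was part of the fit, and the rule also capped their liver and spleen levels. The counts are therefore a description of these genes. Of the 66, 42 differed at a false discovery rate of 0.05, 27 higher in liver and 15 higher in spleen. In the background of 20764 genes tested, 74% differed, 34.5% higher in liver and 39.5% higher in spleen. In a fit of liver and spleen libraries only, where kidney could not carry a gene through the filter, 45 of the 66 genes were tested and 23 differed, 13 higher in liver and 10 higher in spleen, against 73.9% of all genes. In the fit with kidney, the median log2 fold change of spleen over liver was -0.47 for the 66 genes and 0.14 for all genes.

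Liver and spleen libraries did not overlap in 27 of the 66 genes (background 54.6%), and all 27 were among the 42. In 3 genes every spleen was at 0 and some liver was not, in 2 genes the reverse held, and 1 gene was at 0 in both tissues. With library sizes alone, 53 genes differed, 31 of them (58.5%) higher in spleen in place of 35.7%, and the median of all genes moved from 0.14 to 1.68. Of all genes, 86.5% then differed, and 84.7% of those were higher in spleen.

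Monax4B007997 was the most different of the non-overlapping genes higher in liver. Its N in the livers of F6849, F9150, F6852, M4046, M4075 and M4091 was 98.5, 237, 102, 101, 299.9 and 137. In the spleens of F6849, F9150, M4046, M4075 and M4091 it was 1.98, 0, 1.6, 0 and 0. Every liver was thus well above every spleen, with a log2 fold change of -7.39 ± 0.61 (SE, edgeR adjusted p = 2.67e-08) that was -8.23 without spleen F6849.

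Monax4B043008, described above for its excess in kidney, was also higher in liver. Its N was 351, 99.7, 388, 113, 25.6 and 72.3 in the livers and 0, 3.27, 4.8, 0 and 3.82 in the spleens. The livers varied more than 10 times but none fell to the level of a spleen, and the log2 fold change was -6.28 ± 0.82 (SE, edgeR adjusted p = 4.16e-06).

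Among the genes higher in spleen, Monax4B026046 had the largest fold change without overlap, at 143, 19.6, 12.8, 49.6 and 3.82 in the spleens and 2.40, 3.44, 0, 2.51, 3.66 and 0 in the livers. Its log2 fold change was 4.41 ± 0.96 (SE, edgeR adjusted p = 0.000657), and 3.27 without spleen F6849, the highest of the 5. The gene was not tested in the fit of liver and spleen libraries only. Its adjusted p therefore depends on kidney, where the rule made it high, being part of the fit. The lowest spleen and the highest liver were close to each other. Monax4B040971, the gene highest in pancreas, was at 31.8, 52.4, 12.8, 42.5 and 36.3 in the spleens and at 9.61, 0, 0, 5.03, 3.66 and 3.62 in the livers, a log2 fold change of 3.04 ± 0.74 (SE, edgeR adjusted p = 0.00156) that was 3.65 without liver F6849.

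**Figure D4:**
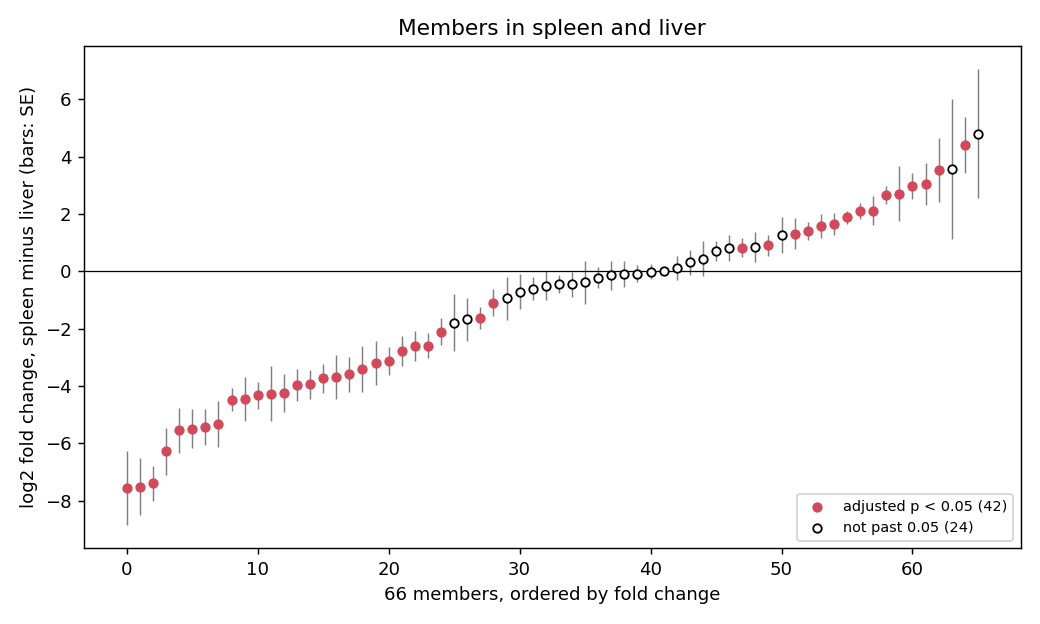
Log2 fold change of spleen over liver for the 66 genes, ordered by size, with the standard error as bars. Filled points are the 42 genes that differed in edgeR's quasi-likelihood test at a false discovery rate of 0.05 in the fit that included kidney, of which 27 lie below 0 (higher in liver) and 15 above. Without kidney in the fit, 45 genes were tested and 23 differed.

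Liver M4046 stood apart in these genes, a pattern chosen after the values were seen. It was the highest of the 6 livers in 34 of the 66 genes (background 20.3%) and lowest in 0 (background 15.8%). It was at least 2 times above every other liver in 6 genes (background 0.429%). Its ratio to the median of the other livers was 1.97 at the median over 61 genes with a value, with quartiles of 1.39 and 2.78, and 1.02 in the background. The other livers were highest in 4 to 11 genes each (background 12.1% to 19.9%). To compare genes of like liver level, 3747 genes whose highest liver level lay between the quartiles of the 66 (35.4 to 211) were examined as well, members included. Liver M4046 was highest in 17.3% of them and in 23 of the 32 members in that range.

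This library had 134403756 counts and ran in lane 4 with spleen F6849. Liver F6849 held 140252555 counts and was highest in 4 of the 66 genes and lowest in 18. The part of depth and lane in this pattern was not tested. Because the score uses the highest of the 13 other libraries, liver M4046 set the score of 21 of the 66 genes. Without it, the comparison of liver and spleen gave 42 genes, 26 higher in liver and 16 higher in spleen, with a median log2 fold change of -0.26.

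**Figure D5:**
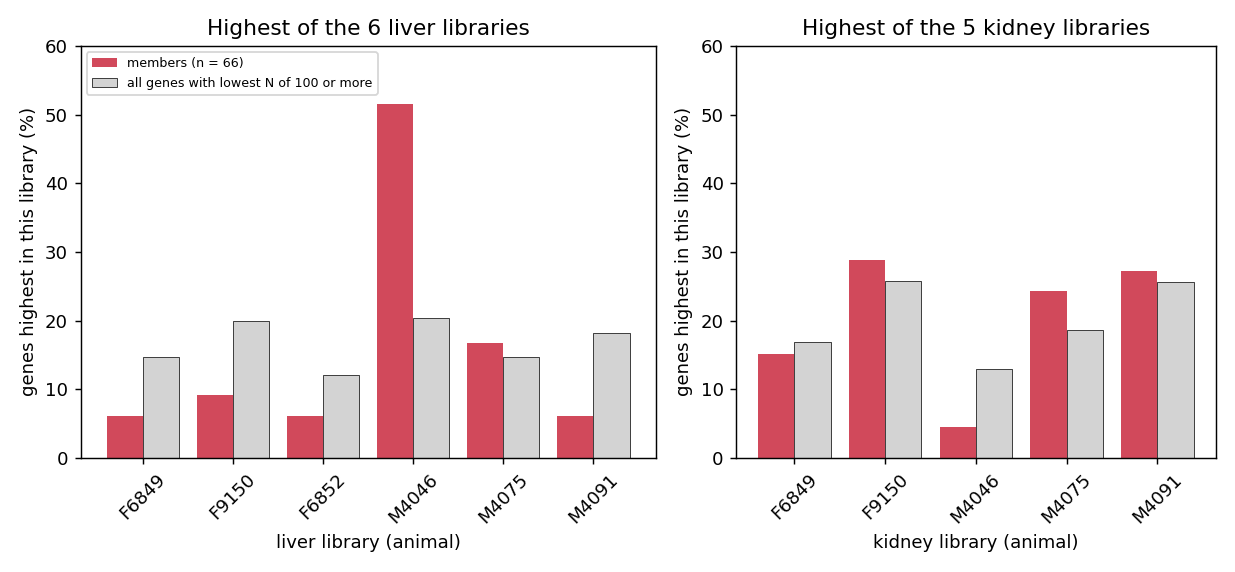
Percentage of genes for which each liver (left) or kidney (right) library was the highest of its tissue, for the 66 genes (red) and for the 12821 background genes with a lowest N of 100 or more in kidney, lung and pancreas (grey). Liver M4046 was highest in 34 of the 66 genes, against 20.3% of the background.

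Differences between animals were tested across liver, kidney and spleen of the 5 animals with all of them. All 66 genes passed the filter on low counts because kidney, where the rule made them high, was part of the fit. The rule also bounded their levels in kidney, liver and spleen. The counts here and in the kidney comparison below are therefore a description of these genes. None of the 66 genes passed (0), with edgeR's quasi-likelihood test and a smallest adjusted p of 0.172, against 0.883% of 20729 background genes. An unadjusted p under 0.05 was found for 7 of the 66 genes (14.1% of all genes tested), and DESeq2 called 4 (11.01% of all genes). Between the 2 female and 3 male kidneys, edgeR called 0 of the 66 genes and 0% of all genes tested, with an unadjusted p under 0.05 for 11 of the 66 (8.01% of all genes), and DESeq2 called 7 (2.57% of all genes). Monax4B010865 had the smallest unadjusted p, and was named above for its level in lung. Its female kidneys (461 and 440.0) lay below its male kidneys (940.1 to 1072), with a log2 fold change of males over females of 1.13 ± 0.17 (SE) and an edgeR adjusted p of 0.439. Both female kidneys ran in lane 3 and no male kidney did, so lane and sex cannot be told apart.

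Monax4B046050 and Monax4B013948, named after their values were seen, had nearly the same counts. In the 7 kidney, lung and pancreas libraries the ratio of their counts was 1.06 to 1.13, the only pair among the 66 within 20% in all of them. They may share reads, so the level of each is uncertain.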

How the data were processed

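Polyadenylated RNA of 7 woodchuck tissues was sequenced as paired reads. Mapping was by the gem-tools rna-mapper and quantification of Monax4B genes by gemtools, and the authors deposited read counts without normalization. The labels also name CASAVA 1.8.4 and FastQC 0.11.5. All columns were used. Groups are the labelled tissues, with the animal as replicate.

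Levels were scaled by median-ratio size factors. Tests used edgeR 4.0.16 in R 4.3.3: filterByExpr, TMM factors, the robust quasi-likelihood fit and Benjamini-Hochberg adjustment over all genes tested, at 0.05. The fits of liver against spleen and of the kidneys had no animal block. The fit for differences between animals had terms for tissue and animal. DESeq2 1.42.0 was an alternative. The methods were tested on simulated data. A standard error is the absolute log2 fold change over the root of F. Figures used Python 3.11.15.

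The members and the rules for naming genes were chosen with earlier results of these data known. At most 2 identifiers were named per comparison and direction: by score, lowest level, ratios between kidney, lung and pancreas, and the largest change between liver and spleen among non-overlapping genes past the threshold. Others are marked. A score without the constant of 5, which was computed before the constant was included, lane as a block, and liver M4046 under other scalings were alternatives added after seeing the data.

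Same-animal libraries came from the same individual. After removal of tissue means, their 15 pairs correlated at 0.122 to 0.312 over 20729 genes. No libraries were duplicates: over 35 pairs of replicates, chi-square divided by its degrees of freedom was at least 121. With 1 library, lung, pancreas, heart and thymus were not tested.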

Additional observations from a re-analysis of the deposited data

Results flagged for a closer look

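Of 42 sets of kidney, liver or spleen values tested for a single library far from the rest, 3 stood out, and chance gives about 1 in 20. Monax4B040971 was at 47908 in kidney F6849, while the other kidneys were at 6271 to 16773. Monax4B022345 was at 10.1 in liver M4046, while the other livers were at 2.40 to 4.08. Monax4B022251 was at 3.62 in liver M4091, from 2 counts, and at 0 in every other liver.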

How the results depend on the processing

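The rule gave 66 genes, and 69 without the constant of 5 in the score, which contained all 66. A lowest score of 1.5 gave 105 and one of 4 gave 37. Leaving out the lung library gave 131 genes, pancreas 143, heart 98 and thymus 83, so each of these single libraries kept genes off the list. Leaving out a kidney, liver or spleen library gave 66 to 76, the highest without spleen F6849. Each of these lists held all 66, since taking a library out of the lowest or highest level can only add genes. With library sizes alone 62 genes met the rule, 48 of them among the 66. For liver and spleen, 18 of 19 alternatives gave a count within 1.5 times of 42; the animal as a block gave 41, the lane as a block 40, DESeq2 44, a test for a change of over 2 times 35, and leaving out a library 40 to 43. The exception was the fit of liver and spleen libraries only, with 23, where fewer members passed the filter (45). The 4 genes named for this contrast kept their direction and call in each fit that tested them. Monax4B026046 was not tested in the fit of liver and spleen libraries only. DESeq2 called 4 genes between animals (11.01% of all genes) and 7 between the sexes in kidney (2.57% of all genes), in place of 0 each; the cause was not tested. At 4 times in place of 2, lung was above every kidney in 4 genes, and pancreas was above in 2 and below in 9, a stricter limit by construction. With library sizes alone pancreas was above in 0 and below in 48. Without each kidney in turn, lung was above in 8 to 10 and pancreas below in 20 to 21. Liver M4046 was the highest liver in 33 and 35 genes under the other scalings. Single libraries of lung, pancreas, heart and thymus limit what can be said of those tissues.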
